A study of Mus musculus with 2 samples.

Results

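The 52 genes described here are a fixed list of genes of the G2 phase and mitosis, the stretch of the cell cycle between the copying of the DNA and the separation of the daughter cells. They were taken by symbol from the 32285 genes of the deposited matrices, and all 52 were found. Their unique molecular identifiers (UMIs, each standing for 1 captured RNA molecule) were followed through the spleens of chronically anaemic mice, in erythroid cells, germinal centre B cells, neutrophil precursors and other cells. C57BL/6 mice were made anaemic for 1 month, with a treatment repeated at intervals of 3 days. In one group the treatment was phenylhydrazine (PHZ), a compound that destroys red blood cells, and in the other it was blood loss. Live spleen cells of each group were run as 1 droplet library with a 3′ kit, and the number of mice per library was not stated. Untreated mice were not analysed here, so that every value below comes from an anaemic spleen and neither library is a healthy control.

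Entry into mitosis depends on the kinase CDK1 bound to a B-type cyclin, and exit from it on the anaphase-promoting complex, a ubiquitin ligase that marks cyclins and the anaphase inhibitor securin for destruction. Most genes of this programme are silent in resting cells and are switched on in late S phase and G2 through promoter elements read by the DREAM and MYB-MuvB complexes and by FOXM1. Red cell precursors divide several times while they fill with haemoglobin, then leave the cycle, condense the nucleus and expel it. Anaemia in mice moves much of this work to the red pulp of the spleen.

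The promoters of the set are shown first because they carry the sequence features that such genes share. RefSeq windows from 250 bases before to 50 bases after the first listed start (GRCm38.p6) were at hand for 46 of the 52 genes. The motifs searched, on both strands, were the cell cycle genes homology region (CHR, TTTGAA or TTCGAA) and the CCAAT box. A CHR was found in 35 of the 46 windows (76.1%), against 5254 of 27025 windows over all genes (19.4%). A CCAAT box was found in 35 windows as well (76.1%, against 37.9%), and at least 2 of them in 28 (60.9%, against 12.2%). Both motifs were present in 29 windows (63.0%, against 7.70%). Within 100 bases before to 30 bases after the start, 26 windows had a CHR (56.5%, against 8.004%). The following 4 windows are printed 5′ to 3′ on the strand of the gene, with matches to either motif, on either strand, in capitals. Ccnb2 and Cdk1 encode the core of the mitotic kinase, and Ube2c and Nusap1 are the genes whose RNA was kept in late erythroid cells, described below.
Ccnb2 (chr9:70421505-70421804, minus strand): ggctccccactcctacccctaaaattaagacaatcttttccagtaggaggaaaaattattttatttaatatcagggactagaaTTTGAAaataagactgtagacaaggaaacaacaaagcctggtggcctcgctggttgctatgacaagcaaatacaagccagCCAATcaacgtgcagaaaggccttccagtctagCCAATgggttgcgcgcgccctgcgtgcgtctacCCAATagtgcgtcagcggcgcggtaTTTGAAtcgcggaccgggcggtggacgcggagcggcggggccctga
Cdk1 (chr10:69352863-69353162, minus strand): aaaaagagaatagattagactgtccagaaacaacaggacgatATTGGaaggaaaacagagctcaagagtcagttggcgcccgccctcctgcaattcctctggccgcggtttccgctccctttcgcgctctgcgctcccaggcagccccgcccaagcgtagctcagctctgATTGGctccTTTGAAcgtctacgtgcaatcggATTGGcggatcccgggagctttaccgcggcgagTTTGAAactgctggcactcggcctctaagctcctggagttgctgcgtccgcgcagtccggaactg
Ube2c (chr2:164769679-164769978, plus strand): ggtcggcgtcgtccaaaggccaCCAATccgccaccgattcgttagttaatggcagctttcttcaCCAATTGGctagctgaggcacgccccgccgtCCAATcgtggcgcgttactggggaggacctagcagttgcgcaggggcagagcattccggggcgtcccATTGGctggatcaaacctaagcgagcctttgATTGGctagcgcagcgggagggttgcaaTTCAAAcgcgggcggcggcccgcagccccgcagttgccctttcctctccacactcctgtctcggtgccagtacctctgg
Nusap1 (chr2:119618048-119618347, plus strand): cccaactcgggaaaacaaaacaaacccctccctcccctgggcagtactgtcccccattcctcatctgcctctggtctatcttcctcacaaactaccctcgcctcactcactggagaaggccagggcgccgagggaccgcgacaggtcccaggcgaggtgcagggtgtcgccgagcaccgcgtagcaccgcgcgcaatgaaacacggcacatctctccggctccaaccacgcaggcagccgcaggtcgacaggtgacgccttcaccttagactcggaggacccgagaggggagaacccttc
Ccnb2 had 3 CCAAT boxes and 2 CHR matches, 1 of which began at position 5 after the start. Cdk1 also had 3 CCAAT boxes and 2 CHR matches, at -71 and -15. Ube2c had 6 CCAAT matches, of which a pair overlaps in the palindrome CCAATTGG, and 1 CHR on the opposite strand at -29. Nusap1 had neither motif in its window, as did G2e3, Birc5, Nuf2 and Tacc3. A match is a description of the letters and not evidence of binding.

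The matrices held all barcodes, and 6113 barcodes of the PHZ library and 8953 of the bleeding library were kept as cells, with medians of 12242 and 8045 UMIs. The libraries shared 15 cell barcodes. Cell classes were rebuilt from marker genes after leaving the 52 genes and other cell cycle genes out of the clustering, and are called "-like" for that reason. Levels are counts per 1000000 (CPM), meaning UMIs of a gene per 1000000 UMIs of the cell group outside the haemoglobin genes, because haemoglobin alone took 44.4% of cell UMIs under PHZ and 32.3% under bleeding. With 1 library per treatment there is no test between treatments. Intervals are exact 95% intervals that cover counting error only, and neither the spread between mice nor the loading of the 2 libraries is in them. Free RNA was abundant: in barcodes of 10 to 100 UMIs, which stand for empty droplets, the 52 genes made up 12600 CPM under PHZ and 6448 under bleeding. In T cell-like cells of the same libraries they made up 1588 and 1600.

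The 52 genes were found chiefly in erythroid-like cells. All 16 erythroid markers had UMIs in every stage, but these markers were used to name the cells and are no separate evidence of their type. Erythroid-like cells with under 20% haemoglobin UMIs held 38.5% of all member UMIs of the PHZ library and 32.8% of the bleeding library. Their summed level was 12950 CPM under PHZ (324 cells) and 13020 under bleeding (153 cells). In cells with 20 to 50% haemoglobin it was 31930 (245 cells) and 34190 (89 cells), which is 2.47 (2.45 to 2.49) and 2.63 (2.59 to 2.66) times the level of the cells before. Of the 52 genes, 46 were called higher at this step under PHZ and 45 under bleeding, a call being a ratio past 1.5-fold whose interval excludes 1. Over all genes tested the share called higher was 21.8% and 23.0%. These are shares of unlike pools. The median cell had 24656.5 and 26411 UMIs outside haemoglobin before the step and 12253 and 8692 after it. Per cell, Hmgb2 gave 96.05 and 88.88 UMIs before the step and 45.18 and 40.2 after it. Mki67 gave 55.53 and 47.18, then 58.78 and 41.03. Ube2c gave 16.48 and 19.48, then 26.17 and 22.25, and Nusap1 8.812 and 8.725, then 9.494 and 8.944.

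In finer steps of the haemoglobin share, the level relative to UMIs outside haemoglobin rose to a single summit in both libraries. Member UMIs per cell were lower at that summit than under 2% haemoglobin. Under 2%, 88 and 56 cells gave 74574 and 43609 member UMIs, and at 50 to 60%, 179 and 72 cells gave 70286 and 27760. The median cell had 104357 and 83953.5 UMIs outside haemoglobin under 2%, and 8266 and 7618.5 at 50 to 60%. The summed level was 9807 and 10020 CPM in cells with under 2% haemoglobin (PHZ, then bleeding), 20190 and 23700 at 10 to 20%, and 37880 and 38790 at 40 to 50%. It reached 46110 (45770 to 46460) and 52470 (51860 to 53090) at 50 to 60%, the highest of the steps in each library. It was then 22680 and 29760 at 60 to 70%, 6335 and 5635 at 70 to 80%, and 3849 and 3835 at 80 to 90%. The 43 genes of an S phase list, which code for DNA replication, had their highest level earlier, 10140 CPM at 20 to 30% under PHZ and 10270 at 10 to 20% under bleeding, and had dropped to 4669 and 5718 where the G2/M genes were highest. The ratio of the G2/M sum to the S phase sum was therefore 1.55 and 1.67 in the cells with least haemoglobin, 9.88 and 9.18 at 50 to 60%, and 18.8 and 26.6 at 60 to 70%.

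**Figure D1:**
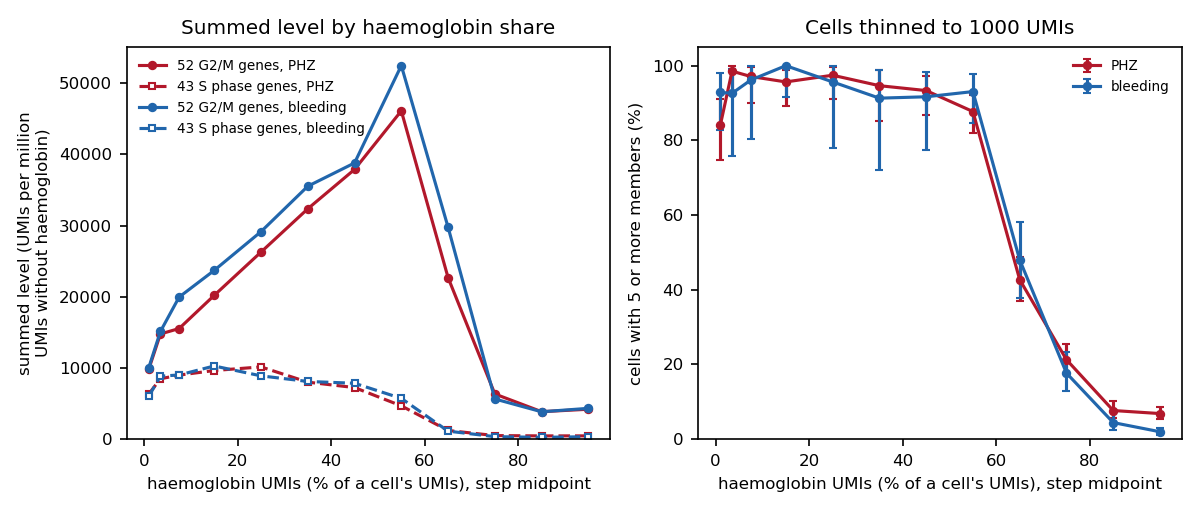
Left, summed level of the 52 G2/M genes (solid) and of 43 S phase genes (dashed) in CPM, for erythroid-like cells in steps of their haemoglobin share, by library. Right, share of those cells in which 5 or more members had a UMI after thinning to 1000 UMIs, with exact 95% binomial intervals. Cells below that depth are left out at right. The level is highest at 50 to 60% haemoglobin, and the share of cells drops between 60 and 80%.

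The summit was shared by most members. The highest step was 50 to 60% haemoglobin for 47 of 52 genes under PHZ, for 45 under bleeding and for 45 in both. Hjurp, the chaperone that loads the centromeric histone CENP-A, was highest earlier, at 30 to 40% under PHZ and 5 to 10% under bleeding. Cbx5, the heterochromatin protein HP1 alpha, was highest at 20 to 30% and 30 to 40%. Nek2, a centrosome kinase, was highest at 40 to 50% in both libraries, and G2e3, a ubiquitin ligase, was highest at 60 to 70% in both. Psrc1 gave the fewest UMIs of the set, 608 in all, and was highest at 10 to 20% and 2 to 5%.

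By role, the CDK1 group (Cdk1, Ccnb2, Cks1b, Cks2, Cdc25c and Cdca3) summed to 1313 and 1462 CPM under 20% haemoglobin, to 2569 and 3132 at 20 to 50% and to 2185 and 2601 at 50 to 80%. Cdk1 itself was at 212 and 260, then 564 and 654, then 425 and 530. Ccnb2, its cyclin partner, was at 154 and 155, then 398 and 488, then 425 and 419. The CDK-binding subunits moved less: Cks2 was at 515 and 572, then 673 and 846, then 494 and 613. Of the ubiquitin ligase parts, Cdc20, the activator of the anaphase-promoting complex in mitosis, was at 110 and 136, then 159 and 172, then 117 and 141. Ube2c is the conjugating enzyme that starts ubiquitin chains for that complex. It was at 379 and 454, then 1982 and 2194, then 2507 and 2612, and so highest at 50 to 80%. From 20 to 50% to 50 to 80%, 6 of the 52 members under PHZ and 5 under bleeding had a ratio above 1, none of them called higher.

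The mitotic and checkpoint kinases (Aurka, Aurkb, Bub1, Ttk and Nek2) summed to 305 and 337 CPM, then 719 and 751, then 431 and 525. Aurka, the spindle pole kinase, was at 84.8 and 94.8, then 233 and 237, then 155 and 192. Among passenger subunits that hold Aurora B at the centromere, Birc5 (survivin) was at 442 and 425, then 1127 and 1372, then 794 and 921. The centromere and kinetochore group was led by Cenpf, a kinetochore protein, at 291 and 329, then 1269 and 1401, then 1251 and 1305. Kif11, the motor that pushes spindle poles apart, was at 204 and 233, then 690 and 760, then 487 and 543. Of the spindle group, Tubb4b, a beta-tubulin, was at 745 and 751, then 1655 and 1679, then 1407 and 1613, and Anln, the cleavage furrow protein anillin, was at 120 and 124, then 356 and 385, then 235 and 263.

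Chromosome structure genes gave the most UMIs. Hmgb2, a DNA-bending chromatin protein, and Mki67, which coats mitotic chromosomes, made up 14.0% and 9.61% of all member UMIs, and the 12 leading genes together made up 62.0%. Hmgb2 was at 2208 and 2072 CPM, then 3423 and 3965, then 2410 and 2831. Mki67 was at 1277 and 1100, then 4452 and 4047, then 3181 and 3117. Top2a, the topoisomerase that untangles sister chromatids, was at 653 and 652, then 1824 and 1804, then 1028 and 1057. Smc4, a condensin subunit, was at 482 and 501, then 1398 and 1454, then 871 and 909. In the nuclear envelope and chromatin group, Lbr, the lamin B receptor, was at 235 and 227, then 931 and 1076, then 583 and 631, and Tmpo, the lamina-associated protein LAP2, was at 340 and 312, then 815 and 799, then 527 and 590. From 20 to 50% to 50 to 80% haemoglobin, 21 members were called lower under PHZ and 15 under bleeding, against 56.6% and 49.7% of all genes, and none was called higher, against 15% and 12.5%.

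**Figure D2:**
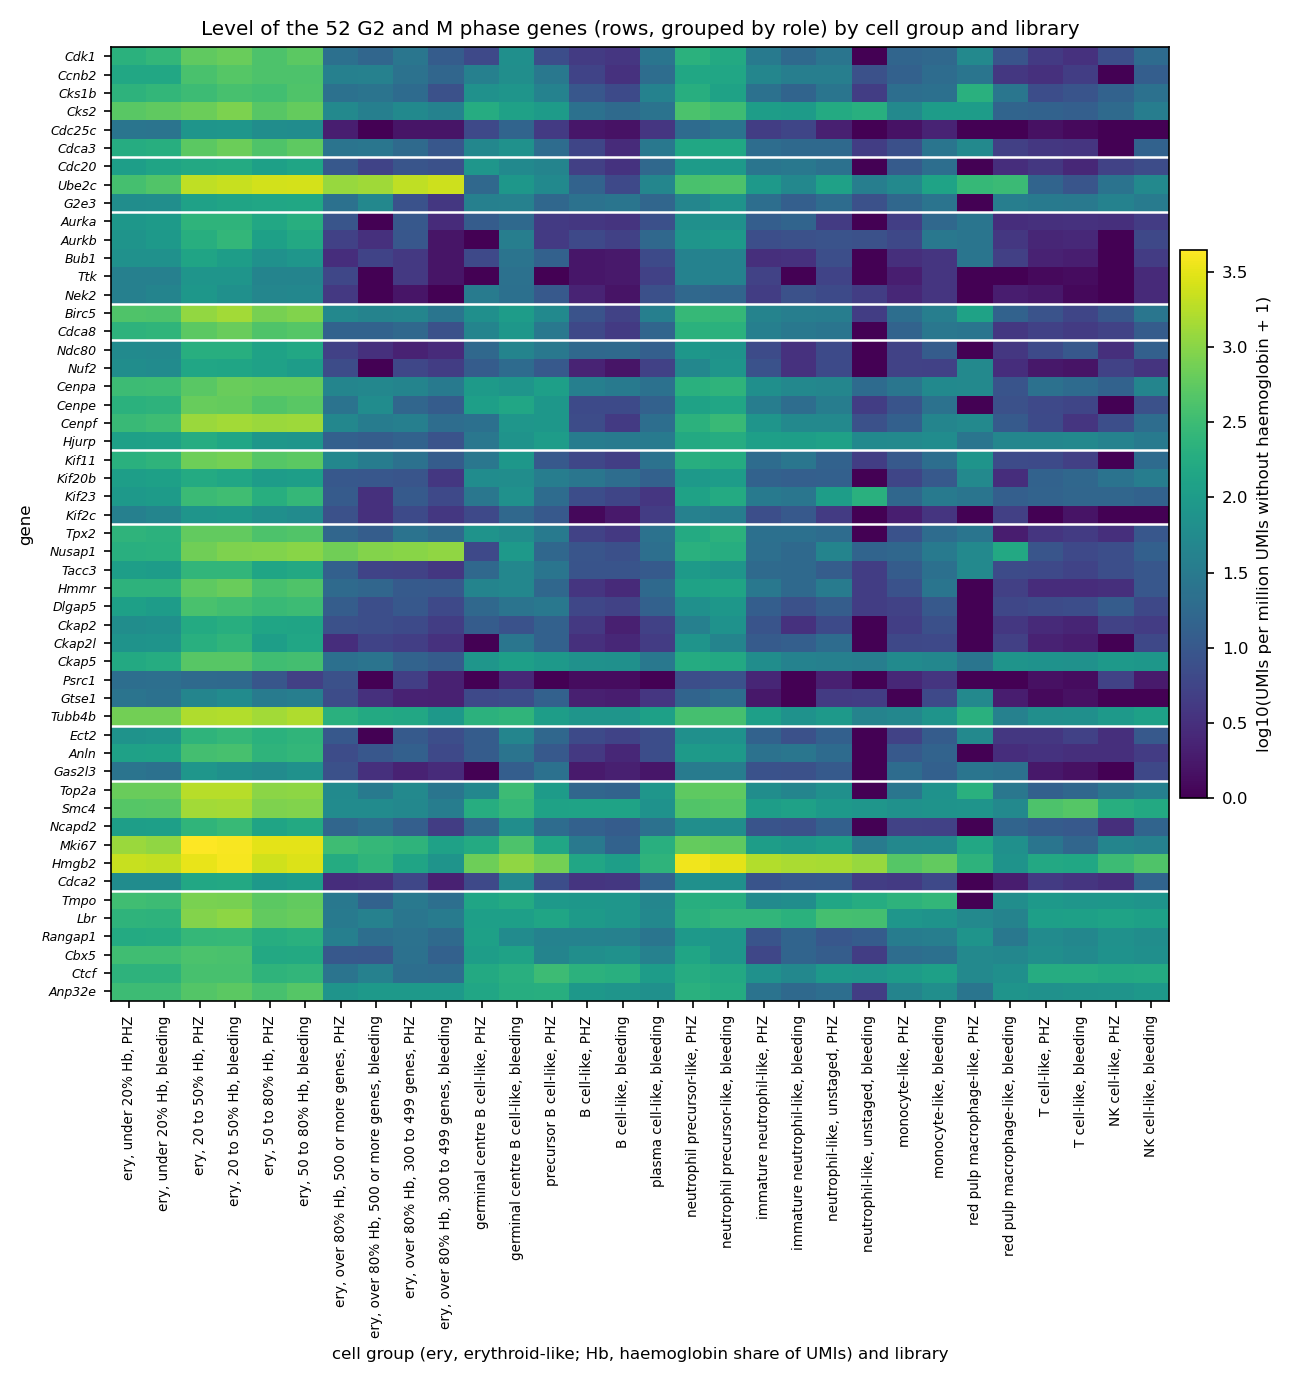
Level of each of the 52 genes (rows, in order of role with white lines between roles) in each cell group of at least 12 cells and each library (columns), coloured on a log10 scale of CPM plus 1. The brightest columns are erythroid-like cells with 20 to 80% haemoglobin, followed by those under 20% and neutrophil precursor-like cells, and the rows of Ube2c and Nusap1 stay bright in erythroid-like cells over 80% haemoglobin.

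The drop after the summit separated cells of the same haemoglobin share. To compare cells of unlike depth, each cell was thinned to 1000 UMIs outside haemoglobin, and the members with at least 1 UMI were counted. Cells below that depth were left out of these shares. At least 5 members were seen in 95.3% (92.3 to 97.3) of PHZ cells and 94.0% (89.0 to 97.2) of bleeding cells under 20% haemoglobin. At 20 to 50% the share was 94.98% and 91.46%, and at 50 to 80% it was 40.4% (37.2 to 43.7) and 40.3% (35.4 to 45.4). In T cell-like cells, where few should divide, it was 0.210% and 0.551%, at a median depth of 8367 and 7718 UMIs outside haemoglobin before thinning, against 4557 and 3756 for erythroid-like cells at 50 to 80%. Without thinning the T cell-like shares were 86.1% and 77.3%, and unthinned shares were therefore not compared between classes. Within the step of 60 to 70% haemoglobin, 42.7% (36.9 to 48.7) and 48.0% (37.9 to 58.2) of cells passed, and the median cell was at 4751 and 5486 CPM although the summed level was 22680 and 29760. Cells that passed in that step had a median of 1836.5 and 1862.5 genes, and those that did not 1209 and 1164.5; their median depths were 6801.5 and 6652.5 UMIs outside haemoglobin against 5111 and 4852.5, so these gene counts are not matched in depth.

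**Figure D3:**
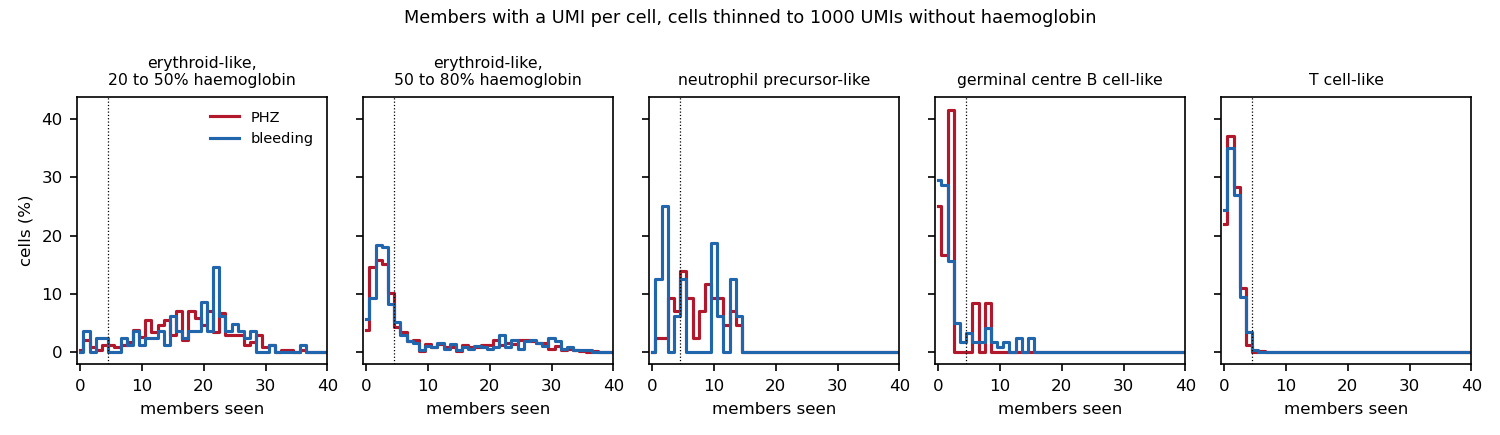
Number of the 52 genes with at least 1 UMI in each cell after thinning to 1000 UMIs outside haemoglobin, as the percentage of cells of 5 groups, with the PHZ library in red and the bleeding library in blue and a dotted line below 5 members. Erythroid-like cells at 20 to 50% haemoglobin have medians of 18 and 20 members, T cell-like cells of 1, and erythroid-like cells at 50 to 80% hold a low mode beside a long tail.

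Over 80% haemoglobin, in the most mature cells, the set was nearly gone apart from 2 genes. In such cells with 500 or more genes the summed level was 3591 CPM under PHZ (410 cells) and 3845 under bleeding (203 cells), or 0.146 (0.141 to 0.151) and 0.143 (0.136 to 0.150) of the level at 50 to 80%. Members nearly absent after this step were tested through their level before it, which favours a call of lower. Called lower were 50 of the 51 members tested in each library, against 64.9% and 49.0% of all genes. The exception was Nusap1, a protein that bundles spindle microtubules, at 915 and 1012 CPM before the step and 715 and 951 after it. Ube2c was called lower here, from 2507 and 2612 to 1228 and 1354, but in cells over 80% haemoglobin with fewer than 500 genes it stood at 1974 and 2333. That last difference was called higher in both libraries (ratio 1.61, 1.51 to 1.72, and 1.72, 1.58 to 1.88), as it was for 2.28% and 1.85% of all genes; Cbx5, under PHZ, was the other member called higher. At the same step 3 members were called lower under PHZ and 12 under bleeding, against 33.8% and 33.1% of all genes. Hmgb2 went from 2410 and 2831 to 178 and 244, and Mki67 from 3181 and 3117 to 322 and 273.

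Ube2c and Nusap1 together made up 4.49% and 5.05% of member UMIs under 20% haemoglobin, 54.1% and 59.95% over 80% with 500 or more genes, and 68.8% and 80.6% with fewer than 500 genes. Relative to its own highest step, the median member kept 2.56% under PHZ and 1.33% under bleeding at 90 to 100% haemoglobin. Ube2c kept 46.3% and 55.4%, and Nusap1 kept 75.7% and 78.8%. The next was Anp32e, a histone chaperone, with 12.8% and 10.7%, apart from the sparse Psrc1 under PHZ (15.7%). The least kept were Nek2, with 0 UMIs in that step of either library, Cdc25c, the phosphatase that activates CDK1, and Ndc80 under PHZ, and Nek2, Cdc25c and Aurkb under bleeding. These levels are shares of a shrinking pool, since the median cell had 5381 and 5391 UMIs outside haemoglobin at 60 to 70% and 1234 and 1085.5 at 90 to 100%. Counted per cell, Ube2c did not rise: it gave 13.4 and 12.2 UMIs per cell at 50 to 80%, 2.97 and 3.06 over 80% with 500 or more genes, and 2.52 and 2.69 with fewer than 500. Nusap1 gave 4.89 and 4.71, then 1.73 and 2.15, then 1.28 and 1.28. The values at 50 to 80% average unlike cells. At 60 to 70%, Ube2c gave 30.7 and 35.9 UMIs per cell where 5 or more members were seen after thinning. Where fewer were seen it gave 2.86 and 2.29, and in such cells over 80% haemoglobin 2.56 and 2.80. Ube2c is itself among the members counted in this split.

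At least 1 Ube2c UMI was found in 72.8% and 76.3% of the cells over 80% haemoglobin with fewer than 500 genes, against 15.1% and 8.08% for Hmgb2. In T cell-like cells, which are deeper, 7.14% and 3.56% had a Ube2c UMI. In empty droplets Ube2c was at 687 and 239 CPM, so its level in these cells was 2.88 and 9.76 times the background, and that of Nusap1 was 3.66 and 7.05 times. The other 50 genes all lay below their background level there, at a median of 0.0883 and 0.0857 of it, with the highest at 0.421 and 0.740.

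**Figure D4:**
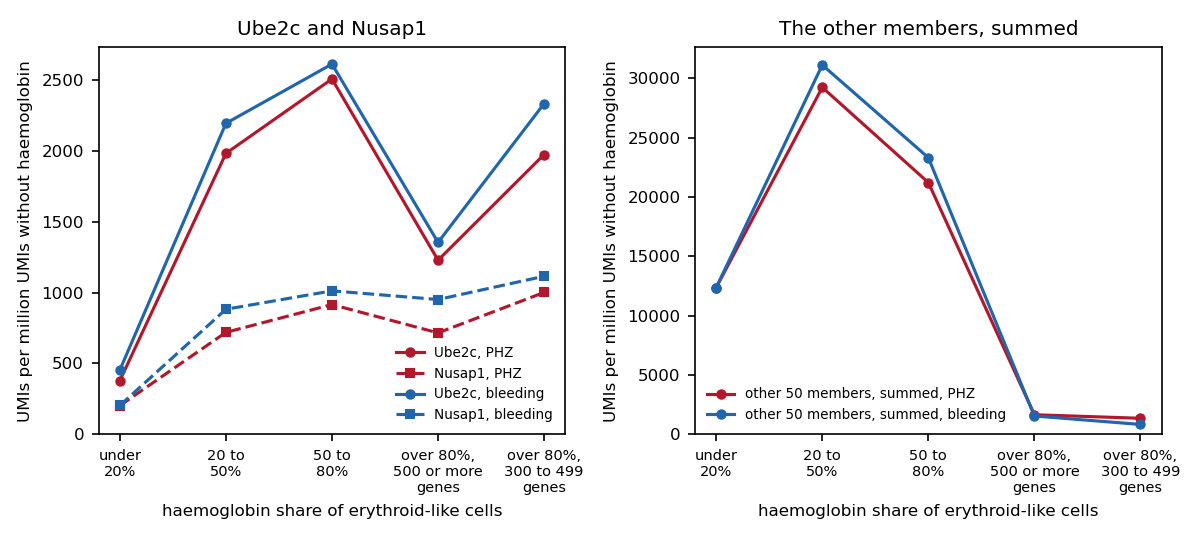
Level of Ube2c (circles) and Nusap1 (squares) at left and of the other 50 genes summed at right, in CPM, across 5 groups of erythroid-like cells and both libraries. The summed level of the other genes collapses over 80% haemoglobin, while Ube2c stays at 1228 to 2333 and Nusap1 at 715 to 1115.

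Other genes of mitosis outside the set mostly followed it. A list of other mitotic genes had 47 tested from under 20% to 20 to 50% haemoglobin. Of these, 38 were called higher in each library, against 21.8% and 23.0% of all genes. Their median ratios were 2.07 and 2.37, against medians of 0.793 and 0.771 over all genes. Over 80% haemoglobin with 500 or more genes, 44 of 46 were called lower under PHZ and 43 under bleeding. Over all genes 64.9% and 49.0% were called lower at this step. Pttg1, which encodes the anaphase inhibitor securin, was the 1 gene of that list called higher in each library: it was at 30.3 and 34.4 CPM at 20 to 50%, 205 and 269 at 50 to 80%, 607 and 785 over 80% with 500 or more genes, and 891 and 1101 with fewer than 500. Per cell this was 0.400 and 0.348 UMIs, then 1.10 and 1.25, then 1.47 and 1.77, then 1.14 and 1.27, so Pttg1 was also higher per cell after 20 to 50%, although the cells with least haemoglobin, which are the deepest, had 1.37 and 1.42. Jpt1, a microtubule-associated protein, was called higher from 20 to 50% to 50 to 80%, from 341 and 348 to 513 and 582 CPM, and was still at 425 and 584 in the last group. Stmn1 (stathmin), Smc2 and Prc1 had the next most UMIs of the list, and in cells over 80% haemoglobin none of the 3 was above 50.2 CPM.

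Of the regulators of the cycle, 13 of 32 tested were called higher and 8 lower from under 20% to 20 to 50% haemoglobin under PHZ, and 15 and 8 of 31 under bleeding. Over all genes 21.8% and 23.0% were called higher and 41.3% and 40.7% lower. Ccnd2 was highest in the cells with least haemoglobin, 111 and 124 CPM, and at 5.87 and 7.76 at 20 to 50%. Ccnd3, the D-type cyclin of late erythroid divisions, was at 228 and 211, then 340 and 440, then 94.8 and 102, and Rb1 at 247 and 218, then 718 and 739, then 398 and 458. Among the inhibitors, Cdkn2d (p19INK4d) was at 32.7 and 30.5, then 665 and 820, then 814 and 1005, and Cdkn1b (p27KIP1) at 19.4 and 17.7, then 63.4 and 94.2, then 586 and 631. Fzr1, the activator of the anaphase-promoting complex in late mitosis and G1, was at 48.7 and 50.4, then 269 and 278, then 797 and 812. Cdkn1b and Fzr1 were the only genes among the regulators tested that were called higher from 20 to 50% to 50 to 80% haemoglobin, in each library, against 15% and 12.5% of all genes. Of 28 and 27 regulators tested, 16 and 15 were called lower, against 56.6% and 49.7%. E2f2, an E2F factor abundant in erythroblasts, was at 161 and 124, then 769.5 and 816, then 1107 and 1038, and still at 675 and 670 in the last group.

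Between the treatments the erythroid levels were close. The ratio of the summed level, PHZ over bleeding, was 0.994 (0.986 to 1.003) under 20% haemoglobin, 0.934 (0.922 to 0.946) at 20 to 50% and 0.915 (0.905 to 0.925) at 50 to 80%. The ratio at 20 to 50% was above 1, at up to 1.09, under 3 other ways of processing (a lower UMI minimum, no removal of doublets, each cell scaled alike), so these data do not settle its direction. None of the 52, 52 and 51 members tested was called in either direction in these 3 groups. Over all genes, 0.519%, 3.76% and 4.63% were called higher and 1.97%, 5.62% and 4.94% lower. The members with the lowest ratio were Cdc20 under 20% (0.810), Aurkb at 20 to 50% (0.733) and Kif23, a cytokinesis motor, at 50 to 80% (0.733). The highest were Mki67 (1.16), Nek2 (1.25) and Kif2c, a microtubule depolymerase (1.17).

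**Figure D5:**
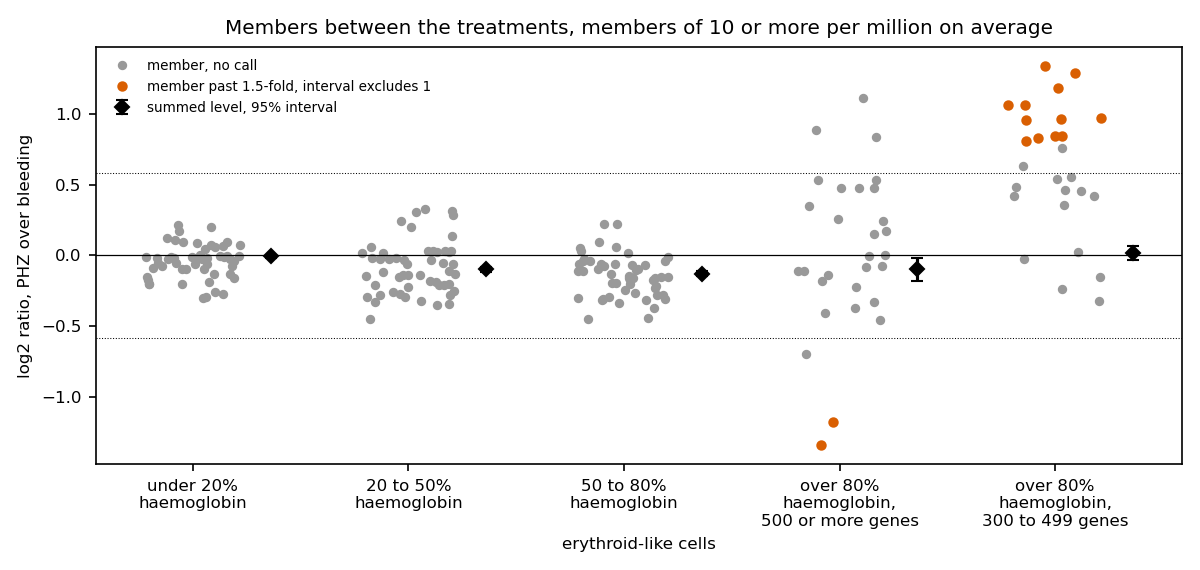
Log2 ratio of the level under PHZ over that under bleeding for each member with a mean of at least 10 CPM (points, spread sideways at random) and for the summed level (diamond, exact 95% interval covering counting error), in 5 groups of erythroid-like cells. Dotted lines mark 1.5-fold; no member passes them with an interval excluding 1 before 80% haemoglobin, 2 are lower in the next group and 12 are higher in the last.

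In the last erythroid groups single members were called, although with 500 or more genes a smaller share of members than of all genes was called. Over 80% haemoglobin with 500 or more genes the summed ratio was 0.934 (0.882 to 0.989), and 2 of 29 members tested were called lower and none higher, against 14.3% and 6.98% of all genes. These were Cenpe, a kinetochore motor, at 23.2 under PHZ and 58.9 under bleeding (ratio 0.394, 0.216 to 0.714) and G2e3 at 22.2 and 50.2 (0.443, 0.235 to 0.831). With fewer than 500 genes the summed ratio was 1.01 (0.978 to 1.045), and 12 of 27 members tested were called higher and none lower, against 14.5% and 12.1% of all genes. Mki67 was at 232 and 120 (ratio 1.94, 1.63 to 2.31), Tubb4b at 153 and 86.1 (1.78, 1.44 to 2.20), Hmgb2 at 136 and 75.5 (1.80, 1.44 to 2.26) and Top2a at 51.9 and 24.8 (2.09, 1.43 to 3.11). Cdk1 was at 25.9 and 10.6 (2.44, 1.38 to 4.51) and Cenpf at 37.1 and 18.9 (1.96, 1.26 to 3.12). The other 6 were Cks1b, Birc5, Kif11, Cdca8, Cbx5 and Cdca3. Cks1b (17.9 and 7.08), Cdca8 (16.1 and 7.08) and Cdca3 (17.3 and 8.85) reached the mean of 10 CPM needed for a test only through their PHZ level. The count of 12 is raised by this selection, and 25 members were not tested. All 12 were also higher in the empty droplets of the PHZ library, by 1.42 to 2.93 times (median 2.49). So were 26 of the 27 members tested here (median 1.93) and 51 of all 52 (median 1.82). All 12 lay below their background level in these cells, as did every member other than Ube2c and Nusap1. The part of free RNA in the difference was not tested. Markers of other cells also differed in this group: 11 B cell markers summed to 164 and 542 CPM, 12 T cell markers to 26.6 and 145, 8 neutrophil markers to 1084 and 566 and 7 neutrophil precursor markers to 29.7 and 8.85, and their part was not tested. With all UMIs as the denominator, 1 member was called in place of 12 in this group and none in place of 2 in the group before it. The share of all genes called with that denominator is not given here.

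Of erythroid-like cells deep enough to thin, 34.0% (32.3 to 35.7) under PHZ and 22.3% (20.4 to 24.2) under bleeding had 5 or more members. This random thinning was drawn apart from that of the single stages, whose counts differ from it slightly. The libraries lost unlike numbers of shallow cells, 191 and 439 in the group over 80% haemoglobin with fewer than 500 genes alone. The make-up of these cells differed: those over 80% haemoglobin numbered 410 with 500 or more genes and 1270 with fewer under PHZ, and 203 and 1472 under bleeding. How many mature red cells were loaded is not given in the sources used here, and loading and treatment cannot be told apart in this share. Within a stage the shares were close up to 80% haemoglobin, as given above. Over 80% the shares count Ube2c and Nusap1, which those cells kept, and are not the same measure as in earlier stages. With 500 or more genes they were 8.05% (5.61 to 11.1) and 4.43% (2.05 to 8.25). With fewer than 500 genes they were 7.14% (5.67 to 8.84) and 2.42% (1.57 to 3.55), of 1079 and 1033 cells deep enough to be thinned. In that group 55 and 21 cells lay at exactly 5 members and 120 and 74 at 4, next to the bound.

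Of the regulators, Cdkn1a (p21), an inhibitor of cyclin-dependent kinases induced by p53, was the 1 gene of 28 tested that was called between the treatments at 20 to 50% haemoglobin, with 121 UMIs under PHZ and 2 under bleeding, or 37.4 and 2.22 CPM (ratio 16.9, 4.57 to 141). That is 1 call among 28, where 3.76% of all genes were called higher. It was found in 39 of 245 cells (15.9%) and in 2 of 89 (2.25%), at median depths of 12253 and 8692 UMIs outside haemoglobin, and the 3 highest PHZ cells held 41.3% of its UMIs. Under 20% haemoglobin Cdkn1a was found in 6.48% and 6.54% of cells, and at 50 to 80% in 1.24% and 1.29%. In the group over 80% haemoglobin with 500 or more genes, Ccnd3 was lower under PHZ, at 25.2 and 72.0 CPM (ratio 0.350, 0.200 to 0.608). Other regulators called were E2f7 (higher) and Myb (lower) under 20%, Rbl2 (lower) at 50 to 80%, Cdkn2c (lower) over 80% with 500 or more genes, and Trp53 (higher) and Cdkn2d (lower) with fewer than 500. In these groups 31, 24, 11 and 11 regulators were tested. The shares of all genes called lower were 1.97%, 4.94%, 14.3% and 12.1%. Called higher were 0.519% under 20% and 14.5% in the last group. Of the other mitotic genes, 47 tested in each group, none was called before 80% haemoglobin. Over 80% with 500 or more genes Spc24 and Stmn1 were higher under PHZ, 2 of 13 tested, against 6.98% of all genes. With fewer than 500 genes Spc24, Stmn1, Prc1 and Knl1 were higher, 4 of 10 tested, against 14.5%. The part of free RNA in these calls was not tested.

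Outside the erythroid cells the set was highest in neutrophil precursor-like cells, which are the dividing stages before the myelocyte ends its divisions. Their summed level was 11690 CPM under PHZ (43 cells) and 11140 under bleeding (16 cells), and it was 3592 and 3079 in immature neutrophil-like cells. The ratio of precursor to immature cells was 3.25 (3.15 to 3.36) and 3.62 (3.401 to 3.85), with 47 of 49 and 48 of 50 members tested called higher, against 40.4% and 22.4% of all genes. Members rare in the immature cells were tested through their level in the precursors, which favours a call of higher, so these counts are no separate support. The 3 highest cells held 41.5% of the member UMIs of the precursors under bleeding and 51.1% of those of the immature cells, and 13.1% and 32.7% under PHZ. The immature level under bleeding also depended on the classes: with cell cycle genes kept in the clustering the precursors were at 14700 and the immature cells at 1889, and without doublet removal at 10450 and 1822. Hmgb2 was at 3669 in the precursors of the PHZ library and 1709 in its immature cells, and Top2a at 561 and 60.3. Lbr, whose product shapes the lobed neutrophil nucleus, was not called in either library, at 222 in the precursors and 254 in the immature cells under PHZ and at 249.8 and 212 under bleeding. Thinned, 79.1% (63.96 to 89.96) and 56.3% (29.9 to 80.3) of the precursors had 5 or more members. The libraries were not compared in these classes because the bleeding library holds fewer than 50 cells of each, nor in the unstaged neutrophil-like cells, 17 of which formed a subcluster led by erythroid genes.

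Germinal centre B cell-like cells, the B cells that divide while they mutate their receptors, numbered 12 under PHZ and 122 under bleeding. Their summed level was 3434 (3174 to 3711) and 5413 (5309 to 5518) CPM, against 1362 and 1203 in other B cell-like cells. In the bleeding library the level was 4.499 (4.398 to 4.602) times as high and 41 of 44 members tested were called higher, against 15.5% of all genes. Between the B cell-like cells of the libraries, 19 members were tested. Members rare in B cell-like cells, such as Cdk1 and Cenpe, reached the mean needed for a test through the germinal centre cells. For such members a call of higher was nearly fixed in advance in either library, so these counts are no separate support. The 10 highest of these 122 cells held 54.4% of the member UMIs, and the median cell was at 1262 CPM, against 1109 for the median B cell-like cell. Mki67 was at 425 in its germinal centre cells and 13.2 in its B cells, Cdk1 at 64.9 and 2.84, and Cenpe at 143 and 5.67. In the PHZ library 3 of the 12 cells held 78.3% of the member UMIs, so its ratio of 2.52 (2.33 to 2.73), with 23 of 35 members called higher against 9.29% of all genes, rests on those cells. Thinned, 16.7% and 19.7% of germinal centre cells had 5 or more members. The class was found again at a clustering resolution of 2, with 12 and 120 cells at 3434 and 5459 CPM, and no cluster took its name with at least 2000 or 500 UMIs per barcode, without doublet removal or with cell cycle genes kept. In precursor B cell-like cells the level was 3285 under PHZ (52 cells, of which 3 held 63.6% of the member UMIs) and 1658 under bleeding (3 cells).

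In the other classes compared, 19 to 35 members reached a mean of 10 CPM. In B cell-like cells the summed ratio of PHZ over bleeding was 1.13 (1.11 to 1.16), and 1 of 19 members tested was called higher, Mki67 at 28.9 and 13.2 (ratio 2.19, 1.85 to 2.59), against 0.944% of all genes. The summed ratio of B cell-like cells was below 1 under 3 other ways of processing, down to 0.863, in each of which no germinal centre class was named. The 16 erythroid markers summed to 463 and 244.5 CPM in these cells, and Mki67 was at 1464 and 715 in empty droplets; their part was not tested. In T cell-like cells it was 0.992 (0.966 to 1.020), with Mki67 at 25.5 and 14.9 (1.72, 1.35 to 2.16) and Ube2c at 14.0 and 8.04 (1.74, 1.25 to 2.39) called higher among 19, against 1.24%. Here too the erythroid markers were higher, at 691 and 311, and Ube2c was at 687 and 239 in empty droplets, and their part was not tested. In monocyte-like cells it was 0.710 (0.670 to 0.753), and 15 of 35 members were called lower, led by Ube2c at 50.4 and 131 and Top2a at 26.3 and 70.9, against 3.58% of all genes. The 3 highest cells held 31.3% of the monocyte-like member UMIs under PHZ and 52.4% under bleeding, and without them the ratio was 0.963 with 3 members called. The share of all genes called without these cells is not given here. Erythroid markers summed to 512.5 and 996 in these cells and B cell markers to 62.5 and 214, and their part was not tested. In NK cell-like cells it was 0.822 (0.756 to 0.893), with Cenpa, Birc5 and Ube2c called lower among 23, against 2.99%, and the ratio was 1.11 without the 3 highest cells of each library. Red pulp macrophage-like cells were at 2661 CPM under PHZ, where 3 of 17 cells held 69.5% of the member UMIs, and at 1395 under bleeding (212 cells). Cells left unnamed were at 2223 and 1914.

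The members differed in how far they separated dividing erythroid cells from T cells. Erythroid-like cells at 20 to 50% haemoglobin were 20.1 (19.6 to 20.6) times as high in the summed level as T cell-like cells under PHZ and 21.4 (21.0 to 21.7) times under bleeding, and all 51 members tested were called higher in each library, against 30.3% and 29.9% of all genes. A gene was tested on its mean over both groups. Members nearly absent from T cell-like cells were therefore tested through their erythroid level, and for them this call was nearly fixed in advance. The count of 51 is thus no support for the difference. Between the T cell-like cells of the libraries, 19 members were tested. The lowest ratio was that of Ctcf, the insulator protein that shapes chromatin loops. It was at 388 and 382 in these erythroid cells and 183 in T cell-like cells of either library (ratio 2.12 and 2.09). Smc4 was 3.33 and 2.99 times as high, Hjurp 3.88 and 2.98, G2e3 3.82 and 4.53, and Rangap1, which drives nuclear transport, 4.72 and 5.78. The next was Cbx5 under PHZ (6.61) and Anp32e under bleeding (7.30). At the other end, Hmmr, a spindle pole protein, was at 558 and 653 in the erythroid cells and 1.93 and 1.87 in T cell-like cells (ratio 289.5, 147 to 671.5, and 349, 242 to 522). Cenpf was 229 (153 to 362) and 523 (386 to 726) times as high. Tpx2, which activates Aurora A on the spindle, had 1920 UMIs against 11 under PHZ (ratio 224, 124.9 to 449.6). Ttk, Kif2c and Nuf2 were also among the highest under PHZ, and Nek2 and Cdc25c under bleeding, on at most 4 UMIs each in T cell-like cells. Birc5 and Cdk1 were 286 (227 to 365) and 276 (199 to 394) times as high under bleeding.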

How the data were processed

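The deposited matrices hold raw counts, whole numbers of UMIs per gene and barcode, made with Cell Ranger 7.0.0 on mm10 per the submitters' processing notes; the headers of the deposited count matrices name software version 4. They cover 128130213 UMIs of the PHZ library and 145260780 of the bleeding library. Of the barcodes, 6445 and 9707 passed the minimum of 1000 UMIs, that of 300 genes and the limit of 10% on mitochondrial UMIs. The top doublet scores by Scrublet, 0.8% per 1000 barcodes, were removed (332 and 754). Cells of both libraries were clustered together (scanpy 1.11.5, leidenalg 0.10.2, igraph 0.11.9, scikit-learn 1.9.0; 2000 variable genes, 30 components, 15 neighbours, resolution 1) without the 52 genes, other cell cycle genes (307 left out in all), haemoglobin, immunoglobulin, T cell receptor, mitochondrial, ribosomal and sex-linked genes, and clusters were named from marker lists. Erythroid-like cells were split by haemoglobin share, and cells over 80% at 500 genes.

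UMIs were summed per class and library. Ratios have exact conditional 95% intervals (numpy 2.4.6, scipy 1.17.1, pandas 2.3.3). A gene was tested at a mean of at least 10 CPM over both groups compared. A gene low in either group could thus be tested through its level in the other. Treatments were compared where a class held 50 or more cells of both libraries. The ratio script was checked on simulated data. Genes named are the 12 with most UMIs, the leading member of each role, up to 6 called per direction and class, the extremes against T cell-like cells and in late cells, and from the other lists those with most UMIs or past 2-fold. Further members and regulators named beside these were chosen after their values were seen, as were the steps of 10% haemoglobin and the narrow CHR window. The members and lists were chosen with earlier results of these data known. Alternatives covered the cell filter, doublets, clustering, scaling, the highest cells, background RNA, the minimum level and the depth of thinning.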

Additional observations from a re-analysis of the deposited data

How the results depend on the processing

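Of 50 recomputed summed ratios of PHZ over bleeding in erythroid-like cells, 35 stayed within the counting interval of the reported value, 12 moved beyond it and 3 lay on the other side of 1 from a reported value whose interval excludes 1, and they ranged from 0.8775 to 1.087. Under 20% haemoglobin the ratio was 1.006 with at least 2000 UMIs per barcode, 1.005 with at least 500, 0.982 with all UMIs as the denominator, 0.9498 with each cell scaled alike and 1.008 without the 3 highest cells, where the reported interval includes 1. At 20 to 50% it was 1.015 with at least 500 UMIs, 1.087 without doublet removal and 1.006 with each cell scaled alike, all above 1. At 50 to 80% it was 0.9268 with at least 500 UMIs, 0.9276 without doublet removal, 0.9502 with all UMIs, 0.9394 with each cell scaled alike and 0.9273 without the 3 highest cells. Over 80% it was 0.8775 without doublet removal (500 or more genes) and 0.9601 with background subtracted (fewer than 500 genes). The count of members called in the last group was 19 with barcodes of 50 to under 300 genes added and 1 with all UMIs as the denominator, which also gave 0 in the group with 500 or more genes. The share of all genes called under these settings is not given here, so these counts are not read as particular to the members. Each share of erythroid-like cells with enough members counts only cells deep enough for that thinning. It was 23.26% under PHZ and 13.32% under bleeding at 500 UMIs, and 68.65% and 63.4% at 2000. The cells counted at 2000 UMIs are a different set, since cells over 80% haemoglobin with fewer than 500 genes had medians of 1241.5 and 1103. The share was 59.29% and 47.63% for 3 or more members, and 25.09% and 16.54% for 8 or more. It was higher under PHZ in each of these. In B cell-like cells the ratio was 0.8912 with at least 2000 UMIs, 0.8717 with at least 500 and 0.863 with cell cycle genes kept, and in NK cell-like cells 1.14 with at least 2000 UMIs and 1.11 without the 3 highest cells. The cause of these shifts was not tested. No paired analysis was possible because each treatment has 1 library, which also leaves no replicate to leave out.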
